A study of Mus musculus with 8 samples.

Results

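The genes described here encode the proteins of the cytosolic ribosome. They were taken as every protein-coding gene whose mouse symbol begins with Rpl or Rps followed by a number, together with Rplp0, Rplp1, Rplp2 and Rpsa. S6 kinases, Rpl39l, Rpl10l, pseudogenes and predicted models were left out. The rule found 87 of the 36528 genes in the deposited tables: 46 proteins of the large subunit, 31 of the small subunit, 5 paralogues, 4 retrocopies and Rps19bp1, which codes for a binding partner of Rps19 and not for a subunit. Fau and Rack1 also code for small subunit proteins but have other symbols, and their values are given apart. Polyadenylated RNA of primary mesothelial cells, from the omentum of mice, was sequenced in 4 WT libraries and 4 BAP1 KO libraries. BAP1 is a nuclear deubiquitinase and a tumour suppressor of mesothelioma, and the comparison asks how its knockout changes expression. The labels name neither strain, age, the deleted exons nor the way BAP1 was removed, and they give no treatment.

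Ribosomal proteins are made in near equal amounts and are assembled with ribosomal RNA in the nucleolus. Their mRNAs carry a tract of pyrimidines at the 5′ end, the TOP motif, through which mTORC1 and LARP1 control their translation. They are among the most abundant mRNAs of growing cells, and most have many processed pseudogenes. A short read from such an mRNA can therefore match several places in the genome, and the deposited counts hold only reads that aligned to 1 place.

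As examples of shared and unshared sequence, the first 50 coding bases of 5 members are given below, the length of 1 read in this study. The start codon is in capitals. They are from GENCODE vM21 on GRCm38, each in the coding exons of its gene. Rps13 (chr7:116331507-116334190), Rpl36 (chr17:56610094-56614246) and Rpl6 (chr5:121204501-121209241) share this stretch exactly with 4, 4 and 2 annotated pseudogenes. No other annotated gene holds the stretch of Rpl10a (chr17:28328471-28331033) or Rpl4 (chr9:64173387-64178562). This 1 stretch does not stand for the gene. Over the whole transcript Rpl10a had 11.9% of 50-base windows found in no other annotated gene, the lowest of the 5, and Rpl4 83.5%.
Rps13: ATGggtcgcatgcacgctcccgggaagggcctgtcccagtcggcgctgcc
Rpl36: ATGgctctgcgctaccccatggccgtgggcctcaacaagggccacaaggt
Rpl6: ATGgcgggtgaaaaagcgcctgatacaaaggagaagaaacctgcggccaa
Rpl10a: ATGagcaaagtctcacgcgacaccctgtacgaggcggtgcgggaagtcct
Rpl4: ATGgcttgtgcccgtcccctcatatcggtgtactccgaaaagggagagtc

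Over the whole transcript, the share of 50-base windows found in no other annotated gene had a median of 47.3% over 86 members, while in the median of 15388 tested genes every window was its own. Only 11 members had at least 80% of windows of their own, against 86.2% of the tested genes, and 19 had less than 20%, against 2.45%. A window also counts as shared where exons of another gene overlap at the same place, so a low share need not mean copies elsewhere. Rpl35 (4.9%) overlaps Wdr38 over 821 bp, and Rpl5 (6.2%) overlaps Fam69a over 953 bp. Rps3, a protein at the mRNA entry of the small subunit, had nearly all windows to itself, while Rps27 had 1.4%. Per gene length, the deposited levels of the tested members ran from 0.621 RPKM for Rpl38 to 660 RPKM for Rpl8, although the proteins are needed in near equal amounts. Across the 86 members Spearman's rho between level and share of own windows was 0.49. The members share libraries and base composition, so this is a description. Some members with many windows of their own were still low: Rps29 had 64.2% and 0.811 RPKM, and Rps16 had 58.4% and 1.52 RPKM. Levels in RPKM are therefore set side by side here as what was counted and not as mRNA abundance.

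**Figure D1:**
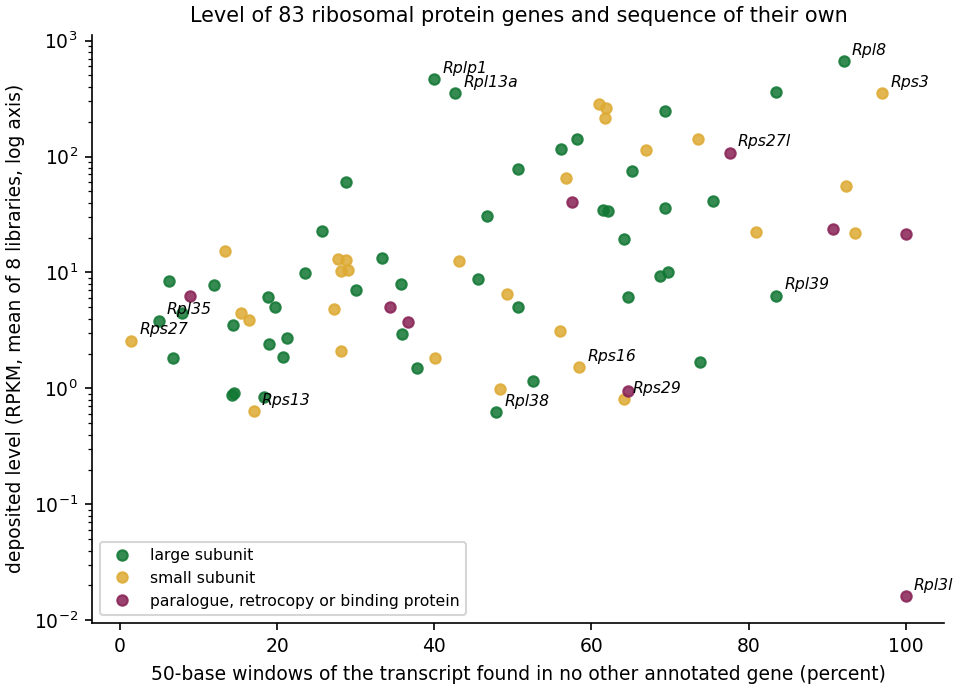
Deposited level of 83 of the 86 ribosomal protein genes with a value (vertical log axis, RPKM, mean of the 8 libraries) against the percent of 50-base windows of the transcript found in no other annotated gene (horizontal). Each point is 1 gene, coloured by class; Rpl8 and Rps3 lie at the upper right, and Rps13, at 0.637 RPKM and 17.0%, lies low on the left.

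The libraries, numbered 1 to 4 within a genotype in the order of deposit since the labels give no numbers, held 67.1 to 84.9 M counts. The protocol states 30 M reads of 1 end, and nothing in the labels accounts for the higher totals. Bap1 was at 62.6 to 64.2 CPM in WT and 52.0 to 54.0 CPM in BAP1 KO, or 84.2% of WT, and counts per gene do not show whether these reads came from deleted exons. The 11 listed mesothelial markers were above 1 CPM in both genotypes except Krt8, which went from 2.35 to 0.793 CPM. Their sum was 1150 to 1180 CPM in WT and 1220 to 1230 CPM in BAP1 KO, but 4 were higher and 5 lower. On the log2 scale the rises reached 0.93, with Wt1 at 0.45. Among the falls were Msln at -1.19, Krt18 at -1.38 and Krt8, the lowest, at -1.56. Markers of other cells were present. The sum of 11 macrophage markers was 15100 to 15400 CPM in WT and 17400 to 18000 CPM in BAP1 KO, a rise carried by Lyz2 (8390 to 11000 CPM): the other 10 summed to 6840 to 7030 and 6700 to 6850 CPM, and of the 11, 5 were higher and 5 lower, with Cd14 at -0.99, Ptprc at -0.37 and Itgam at -0.30. All 7 fibroblast markers were lower, with sums of 19300 to 20600 and 15500 to 16000 CPM. The sum of 5 smooth muscle markers, 2 higher and 1 lower, was 11300 to 11700 and 11400 to 11500 CPM. Of 5 endothelial markers (28.8 to 29.7 and 18.4 to 19.5 CPM) Pecam1, Cdh5 and Tek were below 1 CPM, and so were Cd3e, Cd8a, Cd79a and Ms4a1 among 6 lymphocyte markers (4.94 to 5.16 and 3.03 to 3.35 CPM, or 1.56 to 1.89 and 1.87 to 2.43 CPM without Cd4). The part of these cells in the results below was not tested, and in bulk RNA fewer cells of a type and less RNA per cell cannot be told apart.

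Together the 87 genes took a small share of all counts, and a slightly larger one in BAP1 KO. They held 0.502, 0.497, 0.518 and 0.529% of the counts in the WT libraries and 0.571, 0.561, 0.545 and 0.563% in the BAP1 KO libraries. Every BAP1 KO library was above every WT library. The means were 0.512 ± 0.015% and 0.56 ± 0.011% (SD, n = 4), a ratio of 1.09. Large subunit genes went from 0.254 ± 0.0067% to 0.281 ± 0.0041% (SD, n = 4), a ratio of 1.11, and small subunit genes from 0.24 ± 0.0076% to 0.26 ± 0.0062% (SD, n = 4), a ratio of 1.08. The share rests on few genes of high level. Among all genes of at least 100 CPM, 55.9% were higher and 22.1% lower by the edgeR test used below. The 5 members with the most counts, Rps3, Rpl8, Rpl4 and Rpl13a among them, held 50.5% of the members' counts, and 10 genes held 68.5%. Without the 3 members with the most counts, the share was 0.337 ± 0.0093% and 0.37 ± 0.0072% (SD, n = 4), a ratio of 1.1. The 26 genes with -ps in a ribosomal protein symbol went from 0.021 ± 0.00071% to 0.0222 ± 0.00043% (SD, n = 4), a ratio of 1.06.

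**Figure D2:**
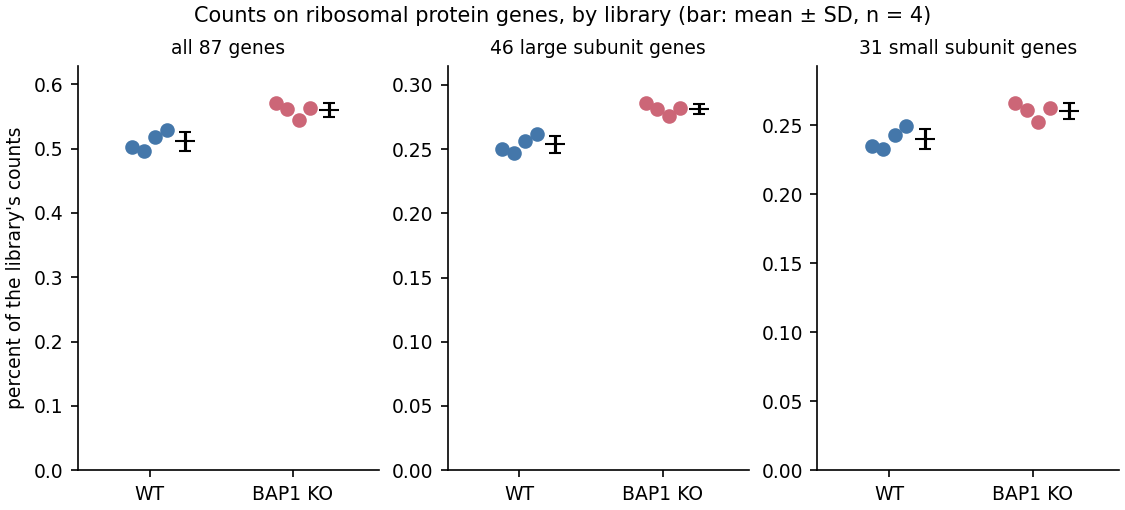
Percent of each library's counts on ribosomal protein genes (vertical axis from 0), for all 87 genes, the large subunit and the small subunit. Points are the 4 libraries of each genotype and bars the mean with the SD; the BAP1 KO points, 0.545 to 0.571% over all genes, lie above the WT points, 0.497 to 0.529%.

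Tested gene by gene, 30 ribosomal protein genes were higher in BAP1 KO, none was lower and 55 did not pass, of 85 tested (edgeR, adjusted p below 0.05; 61.1% of all genes passed in either direction). The count of 0 lower was 0 also at an unadjusted p of 0.05, where 35 were higher, and with DESeq2 and limma-voom. DESeq2 gave 30 higher members (29.5% of all genes), limma-voom 32 (29.1%), and the fit without GC and length trends 42 (41.9%). The 30 make up 35.3% of the tested members, near the 29.0% of all 16929 tested genes that were higher, while 32.1% of all genes were lower. A log2 fold change above 0 was found in 73 members, or 85.9%, against 49.3% of all genes. The members' median log2 fold change was 0.11 (SD 0.13 over genes, highest 0.72), and the median of all genes was -0.005. In the fit without GC and length trends these medians were 0.146 and 0.053. These backgrounds depend on level. At 100 CPM or more 100% of 14 members lay above 0 (median 0.16), beside 68.9% of all genes of that level (median 0.08). At 20 to 100 CPM the shares were 95.0 and 53.0%. In 17 of the 85 members every BAP1 KO library lay above every WT library, against 25.1% of all genes, and in 0 members did every one lie below, against 28.7%. The changes were small: tested against a 1.2-fold change, 0 members passed, while 1261 of all genes were higher and 2594 lower. Rps23rg1 and Rpl3l had too few counts to be tested, at no more than 0.0649 CPM in any library.

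**Figure D3:**
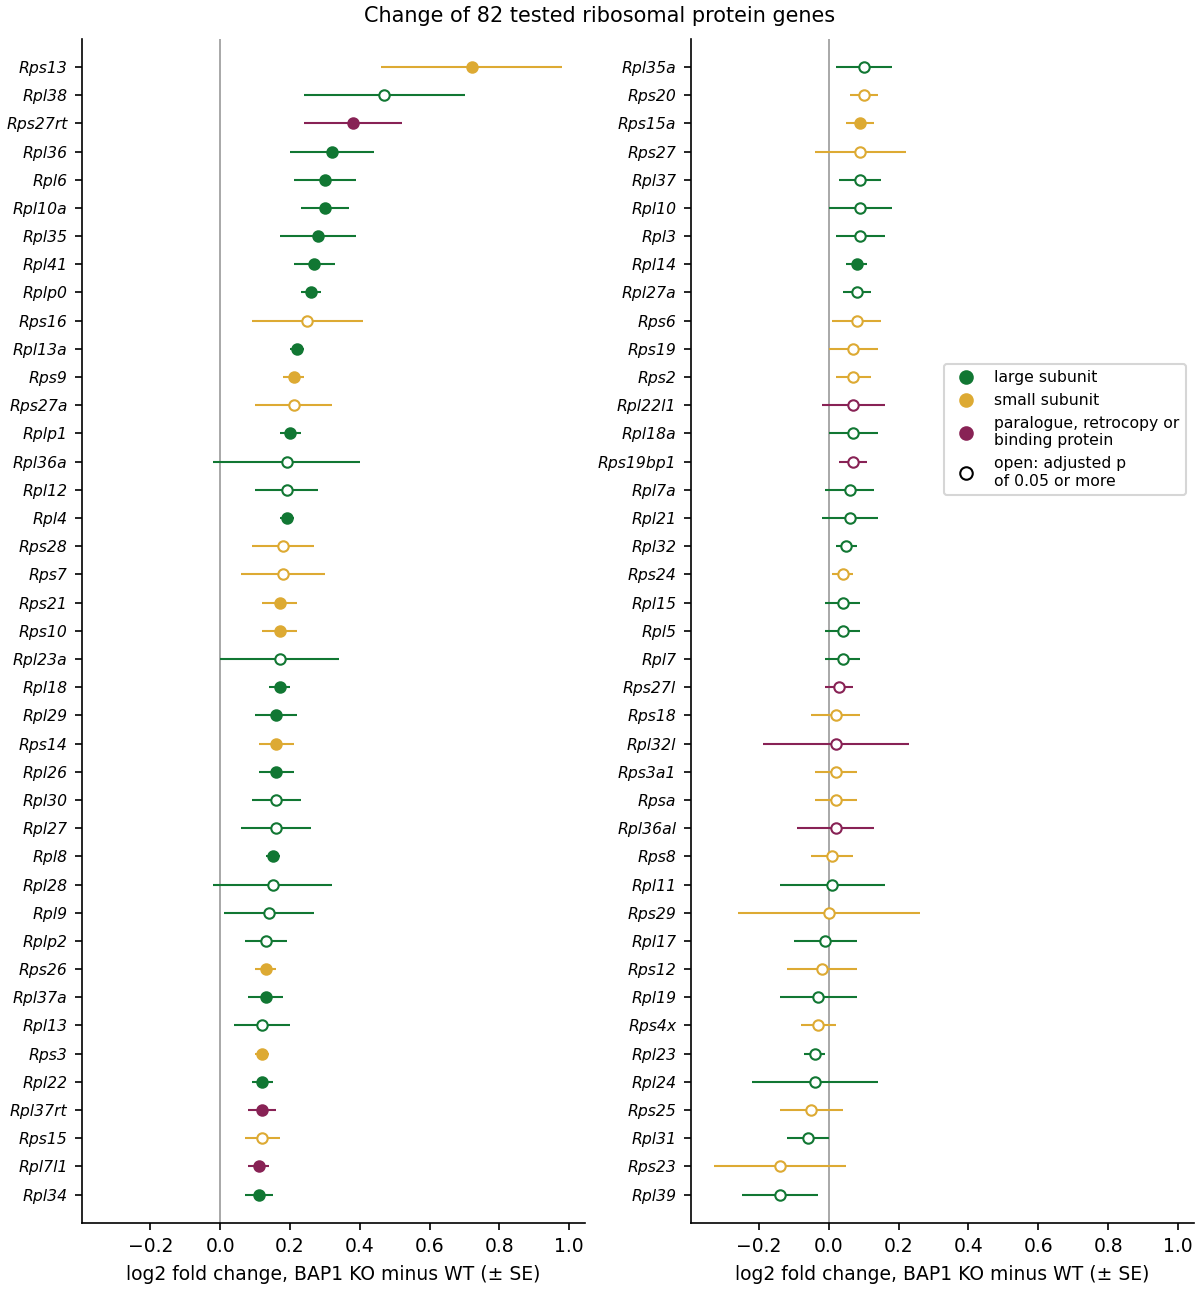
Log2 fold change, BAP1 KO minus WT, of 82 of the 85 tested ribosomal protein genes, with the standard error as a bar. Filled points passed the edgeR test and colours give the class; filled points lie only to the right of 0, and points left of 0, down to Rpl39 at -0.14, are open.

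Members with more counts were called more often, as were all genes. Of 14 members with a mean of at least 100 CPM, 12 were higher, 85.7%, where 55.9% of the 2140 genes of that level were higher and 22.1% lower. Between 20 and 100 CPM 11 of 20 members were higher (35.6% of all genes), between 5 and 20 CPM 3 of 19 (21.4%), between 1 and 5 CPM 3 of 21 (20.8%) and below 1 CPM 1 of 11 (14.4%). By class, 17 of 46 large subunit genes were higher (37.0%, median 0.13) and 10 of 31 small subunit genes (32.3%, median 0.09), and 0 of either were lower. Own sequence did not order the fold changes: the medians were 0.09, 0.05, 0.18, 0.10 and 0.11 in bins of 20 percentage points from the lowest to the highest share of own windows, and Spearman's rho over the 85 members was -0.04. Among the 10 tested members with at least 80% of windows of their own, 6 were higher. The median count was also highest in this bin, and the parts of level and own sequence were not tested apart.

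The ribosomal stalk, Rplp0, Rplp1 and Rplp2, recruits elongation factors to the large subunit. Rplp0, its base, was at 166, 178, 177 and 191 CPM in WT and at 217, 208, 211 and 219 CPM in BAP1 KO. The genotypes did not overlap. It rose by 0.26 ± 0.03 on the log2 scale (edgeR adjusted p = 8.1e-08). Rplp1, at the high level of 468 RPKM, was at 210, 195, 199 and 219 CPM in WT and 241, 224, 232 and 246 CPM in BAP1 KO, again without overlap (0.20 ± 0.03, edgeR adjusted p = 6.6e-05). Rplp2 was at 18.8, 21.9, 22.7 and 24.4 CPM in WT and 24.7, 24.5, 22.6 and 24.6 CPM in BAP1 KO. It did not pass (0.13 ± 0.06, edgeR adjusted p = 0.061), and WT replicate 4 lay above BAP1 KO replicate 3. It passed without either of these libraries (0.19 and 0.16, adjusted p = 0.0018 and 0.018), and on all 8 libraries with DESeq2 (0.14, adjusted p = 0.024), with limma-voom (0.13, adjusted p = 0.031), without a filter on low counts (adjusted p = 0.0041) and with trends in GC and length taken out (0.12, adjusted p = 0.022).

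Among the other large subunit proteins, those with most counts rose by similar amounts. Rpl8, which lies close to the site of peptide bond formation and had the highest level, was at 549, 523, 538 and 568 CPM in WT and 606, 595, 596 and 618 CPM in BAP1 KO. It rose by 0.15 ± 0.02 (edgeR adjusted p = 1.2e-06). Rpl4, which lines the peptide exit tunnel, was at 459, 485, 495 and 487 CPM and then 556, 558, 540 and 542 CPM. It rose by 0.19 ± 0.02 (edgeR adjusted p = 1.3e-08). Rpl13a, also known for a role in interferon-driven control of translation, was at 331, 329, 337 and 349 CPM and 400, 387, 382 and 397 CPM, and had the smallest adjusted p of all members (0.22 ± 0.02, edgeR adjusted p = 6e-10). In all of these, every BAP1 KO library was above every WT library. Rpl22 went from 101 to 109 CPM (0.12 ± 0.03) and Rpl41, the shortest ribosomal protein, from 47.9 to 57.6 CPM (0.27 ± 0.06, edgeR adjusted p = 0.0011). Rpl32, at 117 to 129 CPM in WT and 123 to 131 CPM in BAP1 KO, did not pass (edgeR adjusted p = 0.13). It passed without WT replicate 4 (0.07, adjusted p = 0.02) and with trends in GC and length taken out (0.07, adjusted p = 0.0028).

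**Figure D4:**
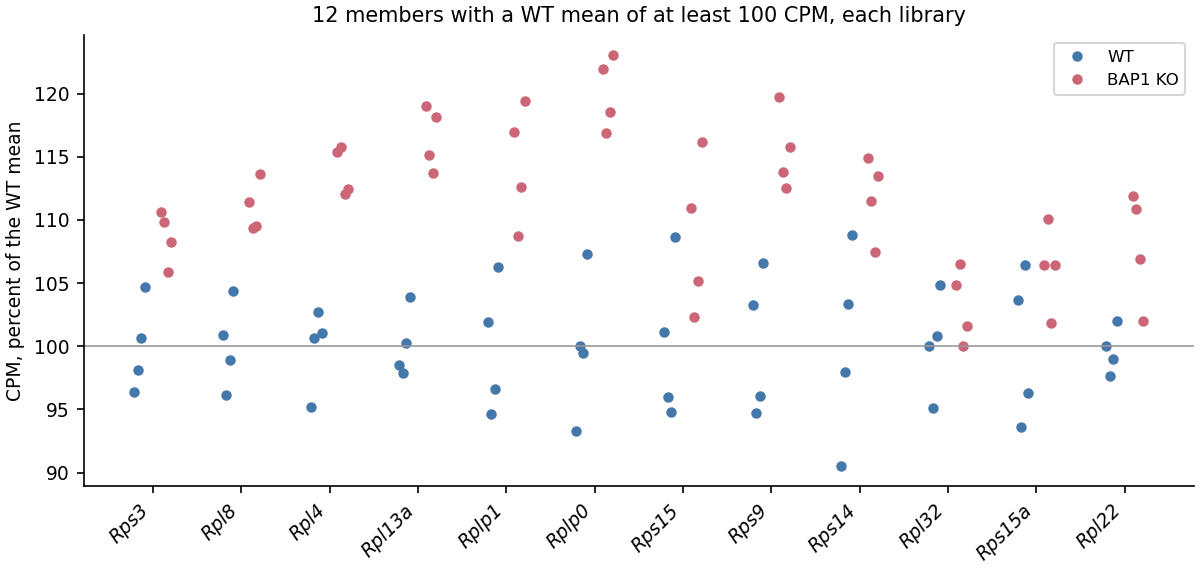
Of the 14 ribosomal protein genes with a WT mean of at least 100 CPM, 12 are shown, with each library's CPM as a percent of that gene's WT mean (vertical axis, not from 0), ordered by WT level. Blue points are WT and red points BAP1 KO; 8 genes show no overlap, among them Rpl13a and Rplp0, and Rps15 and Rpl32, which did not pass the test, overlap.

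The small subunit gave the same order of change. Rps3, with the most counts of all members, was at 619, 630, 646 and 672 CPM in WT and 710, 705, 680 and 695 CPM in BAP1 KO, without overlap (0.12 ± 0.02, edgeR adjusted p = 3.8e-05). Rps9 was at 144 to 162 CPM and 171 to 182 CPM (0.21 ± 0.03, edgeR adjusted p = 1.1e-05). Rps26, mutated in some Diamond-Blackfan anaemias, rose by 0.13 ± 0.03. Rps14 went from 148 to 166 CPM, with a call that was lost without BAP1 KO replicate 4 (0.16, edgeR adjusted p = 0.055). Rps15a went from 109 to 116 CPM (edgeR adjusted p = 0.028), and without WT replicate 2 it was at 0.06 (adjusted p = 0.11); it was lost also without WT replicate 4 (0.08), BAP1 KO replicate 2 (0.08) or BAP1 KO replicate 4 (0.09), with upper quartile factors (adjusted p = 0.067) and with library totals alone (adjusted p = 0.09). Rps15 was at 164 to 188 CPM and 177 to 201 CPM and did not pass (edgeR adjusted p = 0.089). Without WT replicate 4 or BAP1 KO replicate 2 it passed (0.16 and 0.14), as it did with limma-voom (0.12, adjusted p = 0.0079) and without a filter on low counts (0.11, adjusted p = 0.00064).

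The 6 largest log2 fold changes among members that passed came mostly from genes with few counts or little sequence of their own. Rps13 was at 0.266, 0.212, 0.386 and 0.26 CPM in WT and 0.621, 0.411, 0.307 and 0.524 CPM in BAP1 KO, on 18 to 43 counts per library. BAP1 KO replicate 3 lay below WT replicate 3. It gave 0.72 ± 0.26 on the log2 scale (edgeR adjusted p = 0.016), and the call was lost without WT replicate 2 (0.60, adjusted p = 0.069) or BAP1 KO replicate 1 (0.56, adjusted p = 0.083). Rpl36 was at 1.52, 1.33, 1.27 and 1.32 CPM and 1.91, 1.42, 1.83 and 1.64 CPM, with overlap in 1 library of each genotype. It gave 0.32 ± 0.12 (edgeR adjusted p = 0.022), and it did not pass without WT replicate 2 (0.31), WT replicate 3 (0.29), BAP1 KO replicate 1 (0.27) or BAP1 KO replicate 3 (0.28), nor after removal of GC and length trends (0.22). These are the genes whose first coding bases stand above beside 4 identical copies each.

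Rpl6 and Rpl10a kept their calls without each library in turn. Rpl6 was at 6.88, 9.86, 9.45 and 9.88 CPM in WT and 11.1, 10.9, 11.1 and 11.7 CPM in BAP1 KO. The genotypes did not overlap, WT replicate 1 stood low, and the rise was 0.30 ± 0.09 on the log2 scale (edgeR adjusted p = 0.0056). Rpl10a, a protein of the L1 stalk beside the exit site for tRNA, was at 6.65, 7.38, 8.07 and 8.07 CPM and 9.2, 8.83, 8.67 and 10.6 CPM. It rose without overlap by 0.30 ± 0.07 (edgeR adjusted p = 0.00023), with 11.9% of windows of its own and 51 bp of exon shared with a noncoding transcript of the opposite strand.

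Rpl35, which sits at the exit of the peptide tunnel, was at 1.69, 1.44, 1.46 and 1.76 CPM in WT and 2.15, 2.03, 1.78 and 1.74 CPM in BAP1 KO. The lowest BAP1 KO library lay below the highest WT library. The fold change of 0.28 ± 0.11 (edgeR adjusted p = 0.036) did not pass without WT replicate 2 (0.23), WT replicate 3 (0.24), BAP1 KO replicate 1 (0.22) or BAP1 KO replicate 2 (0.25), with DESeq2 (adjusted p = 0.051) or without a filter on low counts. Its exons overlap those of Wdr38 on the opposite strand over 821 bp, and the kit does not mark strand, so reads of the pair cannot be told apart. The same limit holds for Rpl18, which rose from 64.7 to 72.7 CPM (0.17 ± 0.03, edgeR adjusted p = 4.9e-06) and shares 373 bp of exon with Sphk2.

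A further 8 members that passed lay at intermediate levels. Rpl7l1 and Rps27rt, which also passed, are described with the paralogues below. Rps21 was at 51.9, 53.6, 59.4 and 59.3 CPM in WT and 66.8, 63.8, 57.5 and 65.0 CPM in BAP1 KO, with BAP1 KO replicate 3 inside the WT range (0.17 ± 0.05, edgeR adjusted p = 0.011). Rps10, a target of the ligase that marks collided ribosomes, spanned 18.3 to 21.7 CPM in WT and 21.5 to 22.3 CPM in BAP1 KO (0.17 ± 0.05, edgeR adjusted p = 0.0016). Rpl26, which binds the mRNA of p53, spanned 27.8 to 34.1 CPM and 34.2 to 36.4 CPM (0.16 ± 0.05, edgeR adjusted p = 0.0077). Both kept the call without each library in turn. Rps10 has 43.2% and Rpl26 28.7% of windows of their own, and Rps10 shares 189 bp of exon with an antisense transcript.

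The calls for the other 5 hung on single libraries. Rpl29 (0.16 ± 0.06) did not pass without WT replicate 1 (0.12) or BAP1 KO replicate 1 (0.13), and Rpl37a (0.13 ± 0.05) not without WT replicate 1 (0.07). Rpl37rt, a retrocopy of Rpl37 at 40.2 RPKM against 9.39 RPKM for Rpl37 itself, gave 0.12 ± 0.04 and was lost without WT replicate 1 (0.08). Rpl34 (0.11 ± 0.04) was lost without any single one of WT replicates 1, 2 and 3 (0.10, 0.09 and 0.11) and BAP1 KO replicates 1 and 2 (0.10 and 0.08), and with library totals alone (0.09). Rpl14 was lost without WT replicate 1 (0.05), BAP1 KO replicate 1 (0.07) or BAP1 KO replicate 2 (0.06), and with library totals alone.

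The members with the lowest levels could not be resolved at this depth. Rpl38, known for its part in the translation of Hox mRNAs, was at 0.355, 0.294, 0.4 and 0.389 CPM in WT and 0.664, 0.424, 0.38 and 0.538 CPM in BAP1 KO. The genotypes overlapped and the gene did not pass (0.47 ± 0.23, edgeR adjusted p = 0.074), but did without BAP1 KO replicate 3 (0.59, adjusted p = 0.038). Rps29, a zinc-binding protein of the small subunit head, was at 0.192, 0.329, 0.331 and 0.415 CPM and 0.419, 0.321, 0.294 and 0.248 CPM, on 13 to 32 counts. Its log2 fold change had a standard error of 0.26 (edgeR adjusted p = 0.99).

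Other members with known roles beside the ribosome did not pass. Rpl5 and Rpl11 form the 5S particle, which binds Mdm2 when assembly fails. Rpl5 was at 17.1 ± 0.81 and 17.5 ± 1.6 CPM (SD, n = 4; edgeR adjusted p = 0.56), with exons that overlap Fam69a over 953 bp, and Rpl11 at 1.12 CPM in both genotypes (edgeR adjusted p = 0.98). Rps6, the target of the S6 kinases, had a log2 fold change of 0.08 ± 0.07, and Rps27a, which is made as a fusion with ubiquitin, one of 0.21 ± 0.11 (edgeR adjusted p = 0.34 and 0.099). Rpsa, also called the laminin receptor, was at 0.02 ± 0.06, and Rpl39, in the exit tunnel, at -0.14 ± 0.11. Rpl23, whose product binds Mdm2 as well, had -0.04 ± 0.03 and turned to 0.07 (adjusted p = 0.018) after removal of GC and length trends. Under the same removal Rpl5 (0.18, edgeR adjusted p = 0.00035) and Rps27a (0.26, adjusted p = 0.03) passed as well, beside 41.9% of all genes. The median log2 fold change of all genes was then 0.053, close to the 0.07 of Rpl23, against -0.005 without the removal.

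Pairs of paralogues were compared as far as their counts allow. Rps27l, a p53 target, was at 108 RPKM and Rps27 at 2.58 RPKM, with 77.6 and 1.4% of windows of their own. Rps27l was at 64.6, 61.5, 69.3 and 63.2 CPM in WT and 65.3, 70.9, 63.4 and 63.6 CPM in BAP1 KO, and Rps27 at 1.51, 1.42, 1.7 and 1.17 CPM and 1.34, 1.72, 1.51 and 1.59 CPM. Both overlapped between genotypes and did not pass (0.03 ± 0.04 and 0.09 ± 0.13). Rps27l passed after removal of GC and length trends (0.11, edgeR adjusted p = 0.0002). Rps27rt, a retrocopy of Rps27, was at 1.67, 2.12, 2.56 and 1.86 CPM in WT and 2.83, 2.62, 2.0 and 3.32 CPM in BAP1 KO. It passed with overlap (0.38 ± 0.14, edgeR adjusted p = 0.024) and is uncertain, with 8.9% of windows of its own and a call lost without WT replicate 1 (0.30), WT replicate 4 (0.33), BAP1 KO replicate 1 (0.36) or BAP1 KO replicate 4 (0.27).

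Rpl22, which is not essential for translation in most cells, was at 101, 98.6, 100 and 103 CPM in WT and 113, 112, 108 and 103 CPM in BAP1 KO. It rose by 0.12 ± 0.03 (edgeR adjusted p = 0.00041), with BAP1 KO replicate 4 at the level of WT replicate 4. Its paralogue Rpl22l1 was at 2.78, 2.51, 2.91 and 2.93 CPM and 3.15, 3.12, 2.64 and 2.79 CPM and did not pass (0.07 ± 0.09). Rpl7l1, a nucleolar protein of ribosome assembly, was at 61.7, 58.2, 61.6 and 59.5 CPM and 66.8, 65.3, 63.5 and 65.2 CPM. It rose without overlap by 0.11 ± 0.03 (edgeR adjusted p = 0.00074), at 90.8% of windows of its own. Rpl7 was at 26.9, 28.4, 26.6 and 31.1 CPM and 31, 28.6, 29.8 and 26.5 CPM (0.04 ± 0.05), and the difference between the pair was not tested.

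Rpl36a was at 0.532, 0.4, 0.4 and 0.363 CPM in WT and 0.505, 0.475, 0.405 and 0.552 CPM in BAP1 KO, and its intronless copy Rpl36al at 1.76, 2.09, 1.78 and 2.1 CPM and 1.8, 1.95, 2.17 and 1.92 CPM. Neither passed (edgeR adjusted p = 0.44 and 0.89). Rpl3 was at 4.91, 5.85, 4.95 and 5.58 CPM and 5.73, 5.73, 5.69 and 5.56 CPM (0.09 ± 0.07, edgeR adjusted p = 0.27). Rpl3l, which replaces Rpl3 in striated muscle, was at 0.0296, 0.0588, 0.0138 and 0.0519 CPM and 0.0289, 0.0385, 0.0123 and 0.0138 CPM and was not tested. All of its windows are its own.

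Ribosomal proteins with other symbols and near copies of the members were read beside them. Rack1, a scaffold on the head of the small subunit with 99.1% of windows of its own, was at 988 to 1030 CPM in WT and 1060 to 1100 CPM in BAP1 KO. It rose without overlap by 0.11 ± 0.02 (edgeR adjusted p = 7.8e-06), close to the members' median. Fau, a fusion with a ubiquitin-like protein, did not pass (0.19 ± 0.13). Rps4l, listed as a transcribed pseudogene, went from 9.97 ± 0.84 to 12.3 ± 0.54 CPM (SD, n = 4; 0.30 ± 0.05, edgeR adjusted p = 1.8e-05), while Rps4x, which codes for the ribosomal protein, was at 11.9 and 11.6 CPM (-0.03 ± 0.05). Rpl14-ps1, a transcribed pseudogene, held 10047 to 12219 counts per library and stood at 142 and 151 CPM, above its parent Rpl14 at 70.9 and 75.1 CPM. Each rose by 0.08.

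Promoters of the members were described for their letters alone, and any part of these letters in the changes was not tested. RefSeq starts on GRCm38.p6 gave 79 windows for 67 members, from 250 bases before to 50 bases after the start, and 32851 windows over all genes. Both strands were searched. The letters CCGGAAG, the core of sites for ETS factors such as GABP, were in 32.9% of the members' windows and in 8.86% of all. The letters TCTCGCG were in 19.0% against 2.56%, the GC box GGGCGG in 58.2% against 35.7%, and TATAAA in 10.1% against 13.6%. A TOP-like start, C followed by at least 4 pyrimidines at the annotated first base, was also found in 19.0%, against 2.51%, and annotated starts may be off by some bases. The promoters of 4 members are given for these features, from 60 bases before to 20 bases after the start. Matches of these letters and TOP-like starts are in capitals (GC boxes are not marked). In the same span Rps9, Rplp0, Rpl4 and another start of Rpl10a (chr17:28328411-28328490) held no such match, and they are not shown. Rpl38 (chr11:114668520-114668599, plus strand) holds the ETS letters and a TOP-like start, Rpl35 (chr2:39005112-39005191, minus strand) a TOP-like start, Rpl41 (chr10:128549149-128549228, minus strand) the ETS letters, and Rpl10a (chr17:28328505-28328584, plus strand) the letters TCTCGCG on both strands, overlapping.
Rpl38: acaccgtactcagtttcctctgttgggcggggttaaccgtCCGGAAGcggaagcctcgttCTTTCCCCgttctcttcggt
Rpl35: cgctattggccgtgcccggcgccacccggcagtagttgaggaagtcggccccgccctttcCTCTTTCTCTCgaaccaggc
Rpl41: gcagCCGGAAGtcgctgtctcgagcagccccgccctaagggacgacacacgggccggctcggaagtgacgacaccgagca
Rpl10a: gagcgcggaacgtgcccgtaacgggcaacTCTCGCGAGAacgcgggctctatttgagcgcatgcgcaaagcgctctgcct
A match is a description of the letters and no measure of binding.

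Other genes of translation were read from lists, beside the 29.0% of all tested genes that were higher and the 32.1% that were lower. Among genes of 20 to 100 CPM these shares were 35.6 and 32.2%, and among those of at least 100 CPM 55.9 and 22.1%. Of 11 elongation and termination factors, 9 were higher and 0 lower, with a median log2 fold change of 0.14 (-0.005 over all genes). Of the 7 at 100 CPM or more 6 were higher, and of the 4 at 20 to 100 CPM 3. Eef2, which moves the ribosome along the mRNA, went from 1970 ± 71 to 2290 ± 41 CPM (SD, n = 4; 0.21 ± 0.02), and Eef2k, the kinase that inactivates it, from 40.7 to 48.7 CPM (0.26 ± 0.03). The release factor Gspt1 and Eif5a rose by 0.18 ± 0.02 and 0.19 ± 0.03. Of 36 initiation factors, 18 were higher and 1 lower (median 0.06), 13 of the 17 at 100 CPM or more and 5 of the 16 at 20 to 100 CPM. Among them were Eif4g3 (0.35 ± 0.02), Eif3b (0.24 ± 0.02), Eif2b5 (0.22 ± 0.03) and Eif3c (0.18 ± 0.02). Of 20 other mRNAs with a TOP tract, 10 were higher and 2 lower, with a median of 0.11, equal to that of the members. At 100 CPM or more 7 of 10 were higher and 2 lower. The 2 lower ones were Vim, from 2100 ± 59 to 1820 ± 21 CPM (SD, n = 4; -0.21 ± 0.02), and the histone chaperone Nap1l1 (-0.25 ± 0.03), and Eif3f rose by 0.15 ± 0.02.

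Of 13 genes of mTORC1, LARP1 and the S6 kinases, 10 were higher and 0 lower, with a median of 0.18. All 4 at 100 CPM or more and 6 of the 8 at 20 to 100 CPM were higher, beside 55.9 and 35.6% of all genes of those levels. Akt1s1, an inhibitory subunit of mTORC1, rose by 0.43 ± 0.03 (edgeR adjusted p = 3.2e-14). Mtor, the kinase itself, went from 78.9 ± 2.4 to 104 ± 2.6 CPM (SD, n = 4; 0.39 ± 0.03). Eif4ebp1, a translation repressor that mTORC1 inactivates, rose by 0.37 ± 0.03 and Rps6kb1, an S6 kinase, by 0.25 ± 0.03. Activators and inhibitors of the pathway thus rose side by side.

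Of 55 genes of assembly and rRNA processing, 25 were higher, 4 lower and 26 did not pass (median 0.07). Of the 55, 46 lay at 20 to 100 CPM, with 21 higher and 3 lower, beside 35.6 and 32.2% of all genes of that level. Mdn1, an ATPase that remodels the large subunit precursor, rose by 0.40 ± 0.04, Nop56, a core protein of box C/D particles that methylate rRNA, by 0.32 ± 0.03 and nucleolin, Ncl, by 0.20 ± 0.02, while Rcl1, needed for processing of the small subunit rRNA, fell from 16.5 ± 0.58 to 11.9 ± 0.49 CPM (SD, n = 4; -0.47 ± 0.05). Of 15 tested genes of RNA polymerase I, which makes the large rRNAs, 4 were higher and 3 lower, with a median of -0.05. Under 20 CPM lay 9 of the 15, with 1 higher and the 3 lower, beside 18.8 and 34.3% of all genes of that level. Polr1b, Polr1e and Znrd1 gave -0.43 ± 0.04, -0.37 ± 0.05 and -0.34 ± 0.05, and Polr1c, shared with polymerase III, 0.22 ± 0.04. Of 7 dedicated chaperones of ribosomal proteins, Heatr3 (0.16 ± 0.03) and Grwd1 (0.13 ± 0.04) were higher and 0 lower. Of 16 genes of ribosome ubiquitination and rescue, 6 were higher and 1 lower. Rnf10, a ligase for the small subunit, rose by 0.22 ± 0.02, Gcn1, a sensor of collided ribosomes, by 0.23 ± 0.03 and Ascc3, which splits them, by 0.14 ± 0.03. Nemf was at -0.15 ± 0.04, a call that removing GC and length trends ended (-0.01).

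**Figure D5:**
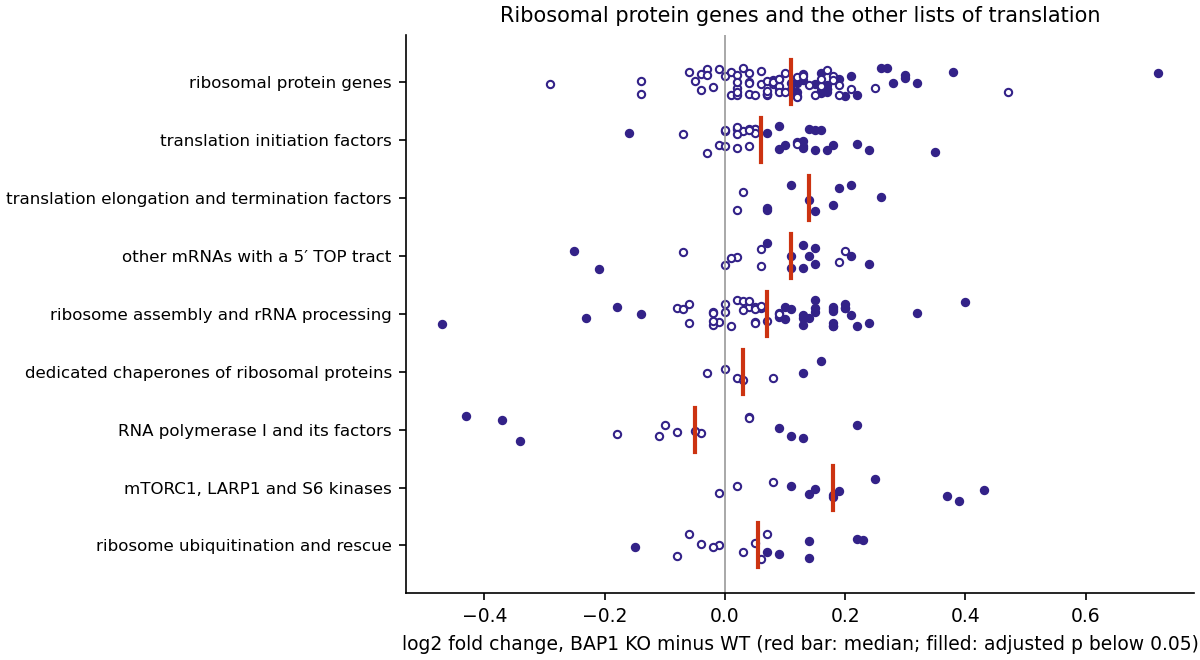
Log2 fold change, BAP1 KO minus WT (horizontal axis), of the tested ribosomal protein genes and of 8 other lists of translation and ribosome synthesis. Each point is a gene, filled where it passed the edgeR test, and red bars are medians; the median was 0.11 for the ribosomal protein genes, 0.18 for mTORC1, LARP1 and the S6 kinases, and -0.05 for RNA polymerase I.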

How the data were processed

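RNA was measured in 4 WT and 4 BAP1 KO libraries, grouped by the genotype in the labels. Replicate numbers follow the order of deposit and only name a library. Per the labels' protocols, 0.5 µg of RNA went into TruSeq RNA v2 libraries, a kit that does not mark strand, read from 1 end over 50 bp on a HiSeq4000. Per the submitters' processing notes reads were handled with GSNAP and GRCm38. Its version, the annotation and any strand setting were not given in the sources used here. Per the file headers, the authors' counts are reads that aligned uniquely to a gene model. Per the file headers too, the deposited RPKM were scaled by size factors; they only set levels side by side.

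The test was edgeR's robust quasi-likelihood test (version 4.0.16, R 4.3.3) with TMM factors and filterByExpr over 16929 genes, Benjamini-Hochberg adjusted at 0.05. Fold changes are log2, BAP1 KO against WT, with their standard error, and CPM use TMM-adjusted totals. Only the edgeR test was tried on simulated counts. Symbols came from RefSeq GRCm38.p6 for 31049 identifiers and GENCODE vM21 for 78; 5401 with 1.15 to 1.29% of counts had none. Own windows were counted on 1 principal GENCODE transcript per gene against all annotated transcripts of other genes, both strands; copies outside the annotation were not searched. The GC and length fit covered 15388 genes.

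The labels do not say if the libraries stem from different animals or cultures; p-values then reflect only how these libraries spread, which may be technical. No pair agreed within counting noise. The genes and lists were chosen with earlier results of these data known. The rule for values in every library took the 6 largest rises and falls that passed (0 members fell), the 3 highest and 3 lowest per length, and paralogue pairs. Rplp0, Rplp2, Rpl4, Rpl13a, Rps3 and Rps21 were also given in every library, outside this rule. In other lists up to 4 genes with the smallest adjusted p were named. Other members named, the level classes, the windows and the promoters shown were chosen after values were seen. Alternatives were RLE and upper quartile factors, library totals alone, factors without ribosomal protein genes, other filters, DESeq2 1.42.0, limma-voom (limma 3.58.1), a 1.2-fold test, removal of GC and length trends, and each library left out. Some genes the rule chose are left out of the text and plots; they stayed in all tests and counts.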

Additional observations from a re-analysis of the deposited data

Results flagged for a closer look

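Of 170 groups of 4 libraries examined, 2 for each of 82 tested members and 6 for the summed shares, 9 held a single library far from the other 3, where chance alone flags about 5% of groups. BAP1 KO replicate 3 was the library in 3 of them. Rpl11 stood at 0.846 CPM there against 1.2 to 1.23 CPM in the others. Rplp2 stood at 22.6 CPM against 24.5 to 24.7 CPM, while Rpl15 was higher, at 22.9 CPM against 19.8 to 20.1 CPM. In BAP1 KO replicate 1, Rpl37a was at 22.0 CPM against 21.4 to 21.5 CPM and Rpl29 at 15.2 CPM against 13.6 to 13.9 CPM. In BAP1 KO replicate 2, Rpl27a was at 24.1 CPM against 22.0 to 22.3 CPM. In WT replicate 1, Rpl6 was at 6.88 CPM against 9.45 to 9.88 CPM and Rpl23a at 0.503 CPM against 0.675 to 0.694 CPM. In WT replicate 3, Rps20 was at 29.8 CPM against 26.0 to 26.5 CPM.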

How the results depend on the processing

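The number of members higher in BAP1 KO was 30, and 27 to 42 under other factors, filters, DESeq2, limma-voom and removal of GC and length trends; without each library in turn it was 23 to 33, the lowest without BAP1 KO replicate 1, and 0 were lower in each of these. In all, 19 of the 30 kept their call in each of these alternatives. Against a 1.2-fold change 0 members were higher, with 1261 of all genes higher and 2594 lower, and 6 genes of the other lists higher and 3 lower. After removal of GC and length trends 42 members were higher, beside 41.9% of all genes; all genes then split into 6449 higher and 4389 lower, against 4908 and 5432, genes of the other lists came to 117 higher against 77, and Rpl23 turned to 0.07. In that fit the median log2 fold change of all genes was 0.053, against -0.005. The cause of these shifts was not tested. Subsets with at least 50% or 80% of windows of their own were chosen after seeing the data. In them 18 of 39 and 6 of 10 members were higher. These counts are lower because fewer genes were tested, but both shares lie above that of all tested members (30 of 85). Members with more windows of their own also had more counts, and genes with more counts were called more often. The parts of level and own sequence were not tested apart. The difference in summed share was 0.049 percentage points, 0.032 without the 3 members with the most counts and 0.044 to 0.054 without each library. No paired analysis was possible because the labels carry no replicate numbers; those used here follow the order of deposit. Members under 1 CPM rest on too few counts to show changes of the size seen in abundant members.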
